A study of Mus musculus with 6 samples.

Results

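p53, encoded by Trp53 in mice, is a transcription factor that is stabilised by DNA damage and other stresses. Its targets halt the cell cycle, repair DNA, change metabolism, trigger cell death or feed back on p53 itself, and lymphoid cells are among the cell types in which the pathway readily leads to death. The level of p53 protein is held down mainly by MDM2, whose gene is itself a target. The 36 genes described here are an extended list of such targets. All 36 were measured, each by exactly 1 probe set assigned to a single gene, among 19938 genes tested.

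Expression was measured on 6 arrays, 3 from cells transduced with PMIP-CRE-ERT2 and 3 from cells transduced with PMIP-ERT2. CRE-ERT2 is the Cre recombinase fused to a modified oestrogen receptor domain that keeps it inactive until tamoxifen is added, and ERT2 is that domain alone. Both groups were BCR-ABL1-transformed pre-B cells of strain 129P2/OlaHsd, a model of Ph+ acute lymphoblastic leukaemia. Both carried 1 floxed allele of Ptpn6 (Ptpn6 +/fl), the gene of the phosphatase SHP-1, and both were treated with 0.5 micromolar 4OH-Tamoxifen for 2 days. Cre itself and any loss of a Ptpn6 allele come with the same vector, so their parts in any difference cannot be told apart.

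Ptpn6 was at 11.36, 11.25 and 11.20 on the log2 scale on the CRE-ERT2 arrays, against 11.25, 11.39 and 11.39 on the ERT2 arrays (limma adjusted p = 0.759). Whether its probe set lies in the floxed part is not known here, so these levels do not check the labels. Of 9 pre-B markers measured, 8 did not pass, and Il7r, the receptor for the growth factor interleukin 7, was lower on the CRE-ERT2 arrays (log2 change -0.43, adjusted p = 0.00349). The 1 call was 11.1% of the markers, where 4.58% of all genes passed. At an unadjusted p under 0.05 there were 2, Il7r and Blnk, which was higher (log2 change 0.21, adjusted p = 0.126). The change was above 0 for 7 of the 9. Groups did not overlap for 3 markers higher and 1 lower, where the shares over all genes were 6.92% and 15.5%. The summed linear level of the 9 markers was 86667 to 87632 on the CRE-ERT2 arrays and 83272 to 87056 on the ERT2 arrays. With limma, 0 of 7 T and NK cell, 0 of 7 myeloid, 0 of 2 erythroid and megakaryocyte and 0 of 5 stromal markers passed (0, 1, 0 and 0 at an unadjusted p under 0.05). The summed myeloid markers were at 1164 to 1204 on the CRE-ERT2 arrays and at 1223 to 1268 on the ERT2 arrays. Lyz2, the brightest of the 7, weighs most in this sum, at a mean of 8.83 against 9.05 (log2 change -0.22, limma adjusted p = 0.200). Of the 7 changes 4 were below 0 and 3 above, those of Itgam (0.13), Elane (0.10) and Csf1r (0.04). The part of these markers in the results was not tested. In such bulk RNA, a smaller share of cells with a transcript and less of it per cell cannot be told apart.

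p53 target genes were higher on the CRE-ERT2 arrays in 9 of 36 cases and lower in 0 (limma, Benjamini-Hochberg adjusted p under 0.05 over all genes). Among all genes tested 4.58% passed in either direction, 2.30% higher and 2.28% lower, against 25% of the targets. Of all calls 50.2% were higher, or 60.9% after a further quantile normalization. At an unadjusted p under 0.05 there were 15 targets higher and 1 lower, where 5.29% of all genes were higher and 11.1% lower (16.4% in either direction). The 9 genes were Plk2, Zmat3, Eda2r, Ephx1, Gadd45b, Trp53inp1, Btg2, Tnfrsf10b and Dcxr, with log2 changes of 0.30 to 0.98. The median log2 change of the 36 genes was 0.14, against -0.03 for all genes. The 3 CRE-ERT2 arrays lay wholly above the 3 ERT2 arrays for 16 of the 36 genes and wholly below for 3, where the shares over all genes were 6.92% and 15.5%. When all 35556 probe sets were fitted and tested, which changes both the number of tests and the moderated variance, 3 of the 9 calls held, those of Plk2, Eda2r and Trp53inp1. With the dimmest genes left out, 1260 genes passed out of fewer tested, and 42.9% of these calls were higher. The share of all genes that passed was thus above 4.58% there. That setting kept 35 of the 36 targets, of which 10 rose and 1 fell.

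**Figure D1:**
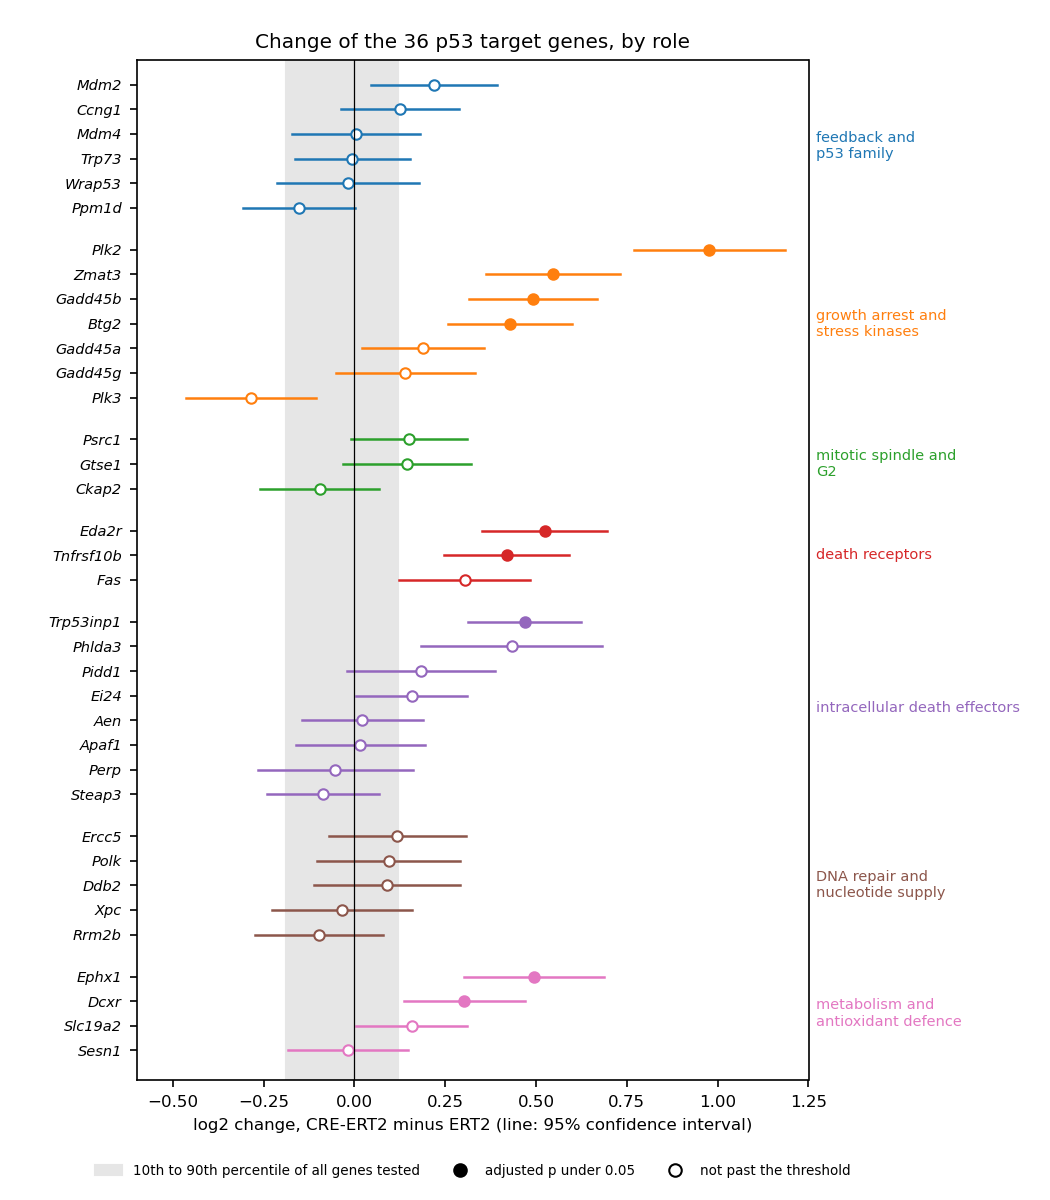
Log2 change (horizontal axis, CRE-ERT2 minus ERT2) of the 36 p53 target genes, listed down the page by role, with 95% confidence intervals from limma. The 9 filled points, from Dcxr at 0.30 to Plk2 at 0.98, passed at an adjusted p under 0.05, and the grey band spans the 10th to 90th percentile of all genes tested (-0.19 to 0.12).

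Promoter sequence was available for 29 of the 36 genes, as RefSeq windows on GRCm38.p6 running from 250 bases before to 50 after an annotated start. These were searched for the p53 half-site consensus, a 10-base motif that reads the same on both strands, and for full sites of 2 such motifs with at most 3 bases between them, at most 2 mismatches in all and the central C and G of each kept. A full site can contain an exact half-site. An exact half-site was found for 11 of the 29 genes (37.9%), against 9.55% of 27025 genes with a window, and a full site for 5 (17.2%), against 1.55%. All 11 genes with a half-site, and all 5 with a full site, were among the 23 windowed genes that did not pass in the expression test. Of the 6 genes that rose and had a window, 0 held either, which says only that these letters are not in these 300 bases.

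The windows of 4 genes are shown because they set the expression results beside the sequence: Ccng1 and Gtse1 hold the closest full sites, with 1 mismatch each, and did not pass, while Plk2 and Dcxr rose. Capitals mark the full site, or for Dcxr the closest match with more mismatches allowed. The first is chr11:40755237-40755536 (minus strand), the second chr15:85859696-85859995 (plus), the third chr11:120727235-120727534 (minus) and the fourth chr13:110394794-110395093 (plus).
Ccng1: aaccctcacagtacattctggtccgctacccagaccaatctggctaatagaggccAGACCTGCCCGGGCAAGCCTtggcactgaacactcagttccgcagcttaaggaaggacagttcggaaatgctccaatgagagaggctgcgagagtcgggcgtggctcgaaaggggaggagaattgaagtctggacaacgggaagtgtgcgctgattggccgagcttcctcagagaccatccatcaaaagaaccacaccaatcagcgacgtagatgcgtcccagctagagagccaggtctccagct
Gtse1: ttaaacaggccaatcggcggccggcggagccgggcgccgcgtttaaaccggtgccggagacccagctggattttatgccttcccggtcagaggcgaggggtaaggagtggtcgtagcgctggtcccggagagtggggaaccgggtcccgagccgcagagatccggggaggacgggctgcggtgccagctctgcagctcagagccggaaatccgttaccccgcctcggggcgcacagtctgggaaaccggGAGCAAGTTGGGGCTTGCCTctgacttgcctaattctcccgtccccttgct
Dcxr: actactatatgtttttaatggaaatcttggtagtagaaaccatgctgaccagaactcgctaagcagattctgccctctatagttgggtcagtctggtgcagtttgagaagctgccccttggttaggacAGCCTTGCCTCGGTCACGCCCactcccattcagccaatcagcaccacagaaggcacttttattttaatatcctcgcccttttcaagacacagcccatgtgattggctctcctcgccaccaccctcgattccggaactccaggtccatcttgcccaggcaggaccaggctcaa
Plk2: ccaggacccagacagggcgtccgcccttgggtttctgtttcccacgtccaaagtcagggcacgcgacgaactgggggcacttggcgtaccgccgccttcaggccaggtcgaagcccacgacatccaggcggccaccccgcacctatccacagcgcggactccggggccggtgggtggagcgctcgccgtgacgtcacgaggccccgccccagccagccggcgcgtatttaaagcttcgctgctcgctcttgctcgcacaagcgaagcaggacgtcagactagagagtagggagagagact
Counting the start as 0, the Ccng1 site runs from -195 to -176 and the Gtse1 site from -1 to 18. The Dcxr match has 3 mismatches and 1 base between its motifs, and matches at least as close were found for 6.56% of all genes. No match with up to 4 mismatches was found in the Plk2 window. The other 3 genes with a full site had 2 mismatches each, and their sites are given alone, read on the strand of the gene.
Ckap2: AGACATGTCCTGACTTGTCA
Sesn1: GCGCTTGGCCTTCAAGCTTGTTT
Trp73: GGGCAAGCTGAGGCCTGCCC
Their windows are chr8:22185770-22186069 (minus strand), chr10:41887189-41887488 (plus) and chr4:154097124-154097423 (minus), in that order. The Ckap2 and Trp73 motifs abut, and 3 bases separate those of Sesn1. The log2 changes of these 5 genes, those with the closest promoter match, lay between -0.10 and 0.14, and none of them passed. Only 6 of the 9 genes that rose had a window, and Zmat3, Tnfrsf10b and Trp53inp1 had none. With up to 4 mismatches, a match was found for 2 of the 6 windowed genes that rose, Dcxr and Ephx1. The same held for 12 of the 23 windowed genes that did not pass and for 19.8% of all genes. Sequence outside the windows was not searched, so p53 sites there are unknown for every gene.

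Among the genes that feed back on p53 or belong to its family, 0 of 6 passed (1 at an unadjusted p under 0.05). Over all genes 4.58% passed and 16.4% had an unadjusted p under 0.05, in either direction. The median log2 change of the 6 genes was -0.00084. Mdm2, the ubiquitin ligase gene that marks p53 for degradation, was at 11.52, 11.44 and 11.65 on the CRE-ERT2 arrays, against 11.39, 11.32 and 11.24 on the ERT2 arrays. Its groups did not overlap, but the log2 change of 0.22 (95% confidence interval 0.05 to 0.39) did not pass (adjusted p = 0.169). Mdm4 encodes a relative of MDM2 that blocks the activation domain of p53. It read 11.45, 11.32 and 11.60 on the CRE-ERT2 arrays, against 11.46, 11.47 and 11.44 on the ERT2 arrays, so the CRE-ERT2 arrays fell on both sides of the others. Ppm1d, the gene of the phosphatase WIP1 that switches damage signalling off, was lower without passing, at 12.01, 12.02 and 11.93 on the CRE-ERT2 arrays, against 12.16, 12.17 and 12.09 on the ERT2 arrays (log2 change -0.15, adjusted p = 0.313). Mdm2 and Ppm1d were the 2 genes of the 6 without overlap, 1 higher and 1 lower. Over all genes 6.92% lay wholly higher and 15.5% wholly lower, and with 6 genes these counts are near those shares.

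Ccng1, the gene of cyclin G1, which brings a phosphatase to MDM2, was at 13.72, 13.78 and 13.78 on the CRE-ERT2 arrays, against 13.72, 13.64 and 13.53 on the ERT2 arrays. The change of 0.13 had an adjusted p of 0.463 and an interval of -0.04 to 0.29. Trp73, which encodes the p53 relative p73, averaged 7.93 ± 0.07 on the CRE-ERT2 arrays and 7.94 ± 0.05 on the ERT2 arrays (SD, n = 3 each). Wrap53, a gene of telomerase assembly that overlaps Trp53 on the opposite strand, averaged 9.88 ± 0.13 on the CRE-ERT2 arrays and 9.90 ± 0.12 on the ERT2 arrays (SD, n = 3 each). Which strand its probes read is unknown here, so signal from its neighbour cannot be told apart from its own. Trp53 itself was not analysed here.

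Growth arrest and stress genes held 4 of the 9 calls, with a median log2 change of 0.43. In this group 4 of the 7 genes rose, where 2.30% of all genes did. Plk2, a polo-like kinase gene induced by stress, read 8.59, 8.45 and 8.45 on the CRE-ERT2 arrays, against 7.67, 7.59 and 7.31 on the ERT2 arrays. The lowest CRE-ERT2 array was thus well above the highest ERT2 array. Its expression was 1.97-fold higher (log2 change 0.98 with a standard error of 0.10, limma adjusted p = 5.41e-05), and its absolute change ranked 55 among all genes. Plk3, a kinase of the same family, ran the other way without passing, at 8.37, 8.31 and 8.24 on the CRE-ERT2 arrays, against 8.45, 8.69 and 8.65 on the ERT2 arrays. The groups did not overlap (log2 change -0.28, adjusted p = 0.0749). Plk3 passed without ERT2 replicate 1 (log2 change -0.36, adjusted p = 0.0394), with array weights (0.0378) and with the dimmest genes left out (0.0412), and its adjusted p was 0.0378 to 0.302 over the 14 alternatives.

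Zmat3 encodes a zinc finger protein that binds RNA and limits growth. It was at 11.35, 11.20 and 11.28 on the CRE-ERT2 arrays, against 10.59, 10.87 and 10.72 on the ERT2 arrays, and every CRE-ERT2 array was higher than every ERT2 array. The change was 1.46-fold (log2 change 0.55 with a standard error of 0.08, adjusted p = 0.00201). Btg2, an antiproliferative gene whose product promotes the removal of mRNA tails, read 10.01, 9.82 and 9.83 on the CRE-ERT2 arrays, against 9.38, 9.52 and 9.48 on the ERT2 arrays. Here too the groups were separate, and the rise was 1.35-fold (log2 change 0.43 with a standard error of 0.08, adjusted p = 0.00659). With all probe sets tested the adjusted p was 0.0577 for Zmat3 and 0.0805 for Btg2.

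The GADD45 genes encode small stress sensors that bind kinases and cell cycle proteins. Gadd45b, also known as a target of NF-kB, read 9.89, 9.74 and 9.68 on the CRE-ERT2 arrays, against 9.18, 9.31 and 9.35 on the ERT2 arrays. It rose 1.41-fold (log2 change 0.49 with a standard error of 0.08, adjusted p = 0.00326, or 0.0630 with all probe sets tested). Gadd45a, the member best known as a p53 target, was at 8.73, 8.90 and 8.67 on the CRE-ERT2 arrays, against 8.57, 8.57 and 8.61 on the ERT2 arrays. Those groups were separate by a narrow margin, and the log2 change of 0.19 did not pass (adjusted p = 0.240). Gadd45g read 7.80, 8.03 and 7.79 on the CRE-ERT2 arrays, against 7.77, 7.61 and 7.81 on the ERT2 arrays, so the groups overlapped (log2 change 0.14, adjusted p = 0.500).

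**Figure D2:**
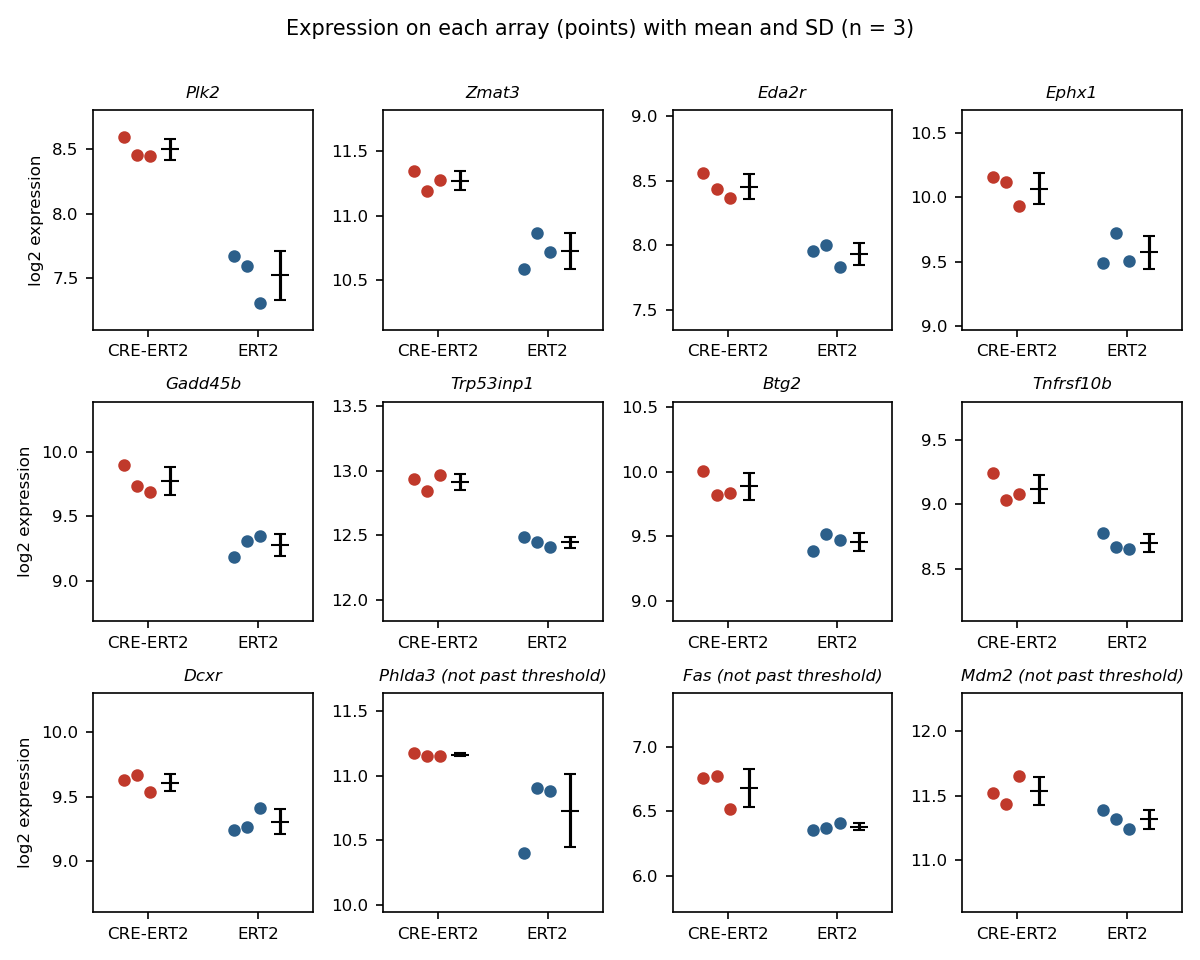
Log2 expression (vertical axes, each panel spanning the same range) on the 3 CRE-ERT2 arrays (left, red) and the 3 ERT2 arrays (right, blue) for the 9 p53 target genes that rose and for Phlda3, Fas and Mdm2, which did not pass. Bars give the mean and SD (n = 3). The groups are separate in all 12 panels, but the panels were chosen with these values known, so this adds no support. Over all genes 6.92% lay wholly higher on the CRE-ERT2 arrays. The low point of Phlda3 is ERT2 replicate 1 at 10.40.

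Of 3 genes linked to the spindle and to the G2 phase, 0 passed, and 0 had an unadjusted p under 0.05. The shares over all genes were 4.58% and 16.4% in either direction, so 0 of 3 is not far from them. Psrc1, whose product binds spindle microtubules, read 11.81, 11.67 and 11.69 on the CRE-ERT2 arrays, against 11.58, 11.62 and 11.51 on the ERT2 arrays (log2 change 0.15, adjusted p = 0.348). Gtse1, a microtubule-binding protein gene whose product also moves p53 out of the nucleus, averaged 12.13 ± 0.05 on the CRE-ERT2 arrays and 11.98 ± 0.13 on the ERT2 arrays (SD, n = 3 each). Ckap2, another microtubule protein gene, averaged 11.38 ± 0.10 on the CRE-ERT2 arrays and 11.48 ± 0.04 on the ERT2 arrays (SD, n = 3 each). Gtse1 and Ckap2 had overlapping groups.

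For all 3 death receptor genes, every CRE-ERT2 array was above every ERT2 array, and 2 of the 3 passed. The shares over all genes were 6.92% and 2.30%. Eda2r, which encodes a receptor for ectodysplasin A2, read 8.56, 8.44 and 8.37 on the CRE-ERT2 arrays, against 7.96, 8.001 and 7.84 on the ERT2 arrays. The rise was 1.44-fold (log2 change 0.52 with a standard error of 0.08, adjusted p = 0.00174), and it held under all 14 alternatives. Tnfrsf10b, the mouse receptor for the death ligand TRAIL, read 9.24, 9.04 and 9.08 on the CRE-ERT2 arrays, against 8.78, 8.67 and 8.65 on the ERT2 arrays. It was 1.34-fold higher (log2 change 0.42 with a standard error of 0.08, adjusted p = 0.00798, or 0.0917 with all probe sets tested). Fas, the receptor for FAS ligand, was dimmer on its probe set, at 6.76, 6.77 and 6.51 on the CRE-ERT2 arrays, against 6.35, 6.37 and 6.41 on the ERT2 arrays. CRE-ERT2 replicate 3 lay nearest to the ERT2 arrays, and the log2 change of 0.30 did not pass (adjusted p = 0.0602). Without that array the change was 0.39 (adjusted p = 0.0348), and with arrays centred on their medians it also passed (0.0429). The adjusted p of Fas was 0.0348 to 0.241 over the alternatives that kept it. Fas was the 1 target among the third of genes with the lowest mean signal.

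Inside the cell, the genes that carry out or promote death gave a single call among 8 (12.5%, where 2.30% of all genes were called higher). Trp53inp1, whose product promotes p53 activity and autophagy, was at 12.93, 12.85 and 12.97 on the CRE-ERT2 arrays, against 12.49, 12.44 and 12.41 on the ERT2 arrays. The spread within each group was small beside the gap between them, and the rise was 1.38-fold (log2 change 0.47 with a standard error of 0.07, adjusted p = 0.00185), holding under all 14 alternatives. Phlda3, which encodes an inhibitor of AKT at the membrane, read 11.18, 11.16 and 11.16 on the CRE-ERT2 arrays, against 10.40, 10.90 and 10.88 on the ERT2 arrays. The CRE-ERT2 arrays were nearly identical, and ERT2 replicate 1 stood below the other two ERT2 arrays. The log2 change of 0.43 narrowly missed (adjusted p = 0.0522). Without ERT2 replicate 1 it was 0.27 (adjusted p = 0.0895), while Phlda3 passed without ERT2 replicate 2 (0.0137), without ERT2 replicate 3 (0.0217) and in 4 of the 8 alternatives that kept every array. Its adjusted p was 0.0137 to 0.289 over all alternatives.

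Ei24, a gene of an endoplasmic reticulum protein needed for autophagy, read 12.42, 12.39 and 12.40 on the CRE-ERT2 arrays, against 12.19, 12.31 and 12.24 on the ERT2 arrays, with separate groups but a change of only 0.16 (adjusted p = 0.288). Pidd1, the scaffold gene of the complex that activates caspase-2, read 10.32, 10.24 and 10.08 on the CRE-ERT2 arrays, against 9.86, 10.17 and 10.05 on the ERT2 arrays, and its groups overlapped (log2 change 0.18, adjusted p = 0.369). Apaf1, the core gene of the apoptosome, averaged 11.50 ± 0.03 on the CRE-ERT2 arrays and 11.48 ± 0.14 on the ERT2 arrays (SD, n = 3 each). None of these 3 genes passed. The nuclease gene Aen averaged 10.16 ± 0.09 on the CRE-ERT2 arrays and 10.14 ± 0.06 on the ERT2 arrays (SD, n = 3 each). Perp, a gene of cell junctions and death, averaged 7.38 ± 0.19 on the CRE-ERT2 arrays and 7.44 ± 0.11 on the ERT2 arrays (SD, n = 3 each). Steap3, a gene of iron reduction, was at 11.78, 11.79 and 11.69 on the CRE-ERT2 arrays, just below the 11.82, 11.88 and 11.83 of the ERT2 arrays (log2 change -0.09, adjusted p = 0.643).

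Of the 5 DNA repair and nucleotide supply genes, 0 passed, 0 had an unadjusted p under 0.05 and all 5 had overlapping groups. Among all genes 4.58% passed, 16.4% had an unadjusted p under 0.05 and 22.5% had separate groups, in either direction. With only 5 genes, counts of 0 are not far from these shares. Rrm2b, the p53-induced subunit of ribonucleotide reductase, read 9.30, 9.20 and 9.38 on the CRE-ERT2 arrays, against 9.44, 9.45 and 9.27 on the ERT2 arrays. Ddb2, a sensor gene for ultraviolet damage, read 9.47, 9.21 and 9.20 on the CRE-ERT2 arrays, against 9.09, 9.33 and 9.19 on the ERT2 arrays. Neither the change of Rrm2b (-0.10, 95% confidence interval -0.27 to 0.08) nor that of Ddb2 (0.09, interval -0.11 to 0.29) had an interval that left out 0. The same held for the damage recognition gene Xpc (-0.03), the translesion polymerase gene Polk (0.09) and the excision nuclease gene Ercc5 (0.12), with adjusted p of 0.928, 0.714 and 0.594. The highest upper end of these 5 intervals was 0.31, for Ercc5.

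In metabolism and antioxidant defence 2 of 4 genes rose, where 2.30% of all genes did. Ephx1, which encodes the microsomal epoxide hydrolase that detoxifies reactive compounds, read 10.16, 10.11 and 9.93 on the CRE-ERT2 arrays, against 9.49, 9.72 and 9.51 on the ERT2 arrays. It was 1.41-fold higher (log2 change 0.49 with a standard error of 0.09, adjusted p = 0.00581, or 0.0975 with all probe sets tested). Dcxr, a sugar reductase gene, read 9.63, 9.66 and 9.54 on the CRE-ERT2 arrays, against 9.24, 9.26 and 9.41 on the ERT2 arrays. The groups were separate, and the rise was 1.23-fold (log2 change 0.30 with a standard error of 0.08, adjusted p = 0.0438). Dcxr was the least firm of the 9 calls: it held without ERT2 replicate 3 (0.0266) and was lost without any other single array (adjusted p = 0.0976 to 0.178), with the replicate number as a block (0.122) and with all probe sets tested (0.183).

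Slc19a2, the thiamine transporter gene, read 11.17, 11.12 and 11.08 on the CRE-ERT2 arrays, against 10.99, 10.99 and 10.92 on the ERT2 arrays. The groups were separate, but the change of 0.16 did not pass (adjusted p = 0.289). Sesn1, a sestrin gene that restrains mTORC1 and oxidative stress, averaged 12.04 ± 0.09 on the CRE-ERT2 arrays and 12.06 ± 0.06 on the ERT2 arrays (SD, n = 3 each).

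**Figure D3:**
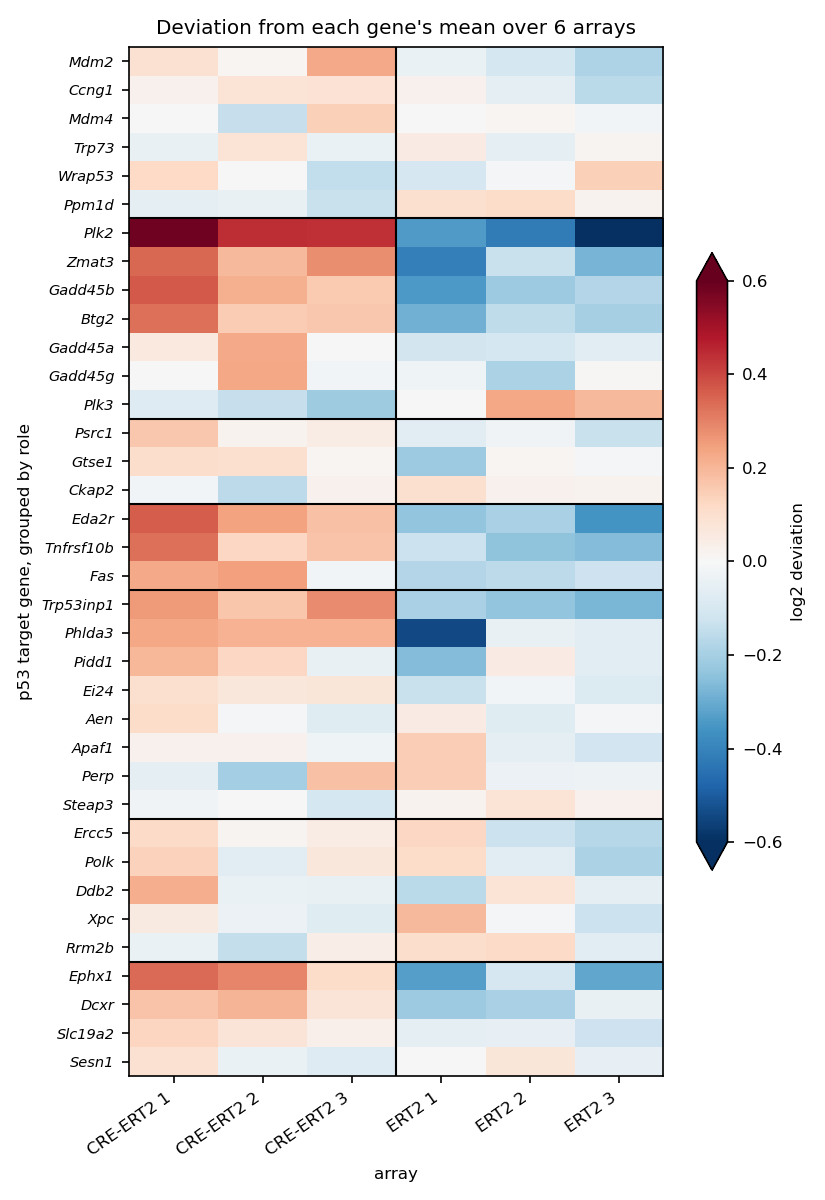
Deviation of each array (columns, CRE-ERT2 left of ERT2) from the mean of a gene over the 6 arrays, on the log2 scale (colour), for the 36 p53 target genes in rows grouped by role. The median deviation of the 36 genes was 0.11, 0.07 and 0.04 on the CRE-ERT2 arrays and -0.06, -0.05 and -0.08 on the ERT2 arrays.

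Array by array, the median of the 36 genes lay above their 6-array means on all 3 CRE-ERT2 arrays and below them on all 3 ERT2 arrays. The median deviation was 0.11, 0.07 and 0.04 on CRE-ERT2 replicates 1, 2 and 3, and -0.06, -0.05 and -0.08 on ERT2 replicates 1, 2 and 3. Over all genes tested the same median was -0.03, 0.0022 and -0.02 on the CRE-ERT2 arrays, and 0.04, -0.02 and 0.03 on the ERT2 arrays. CRE-ERT2 replicate 1 was the highest of the 6 arrays for 17 of the 36 genes. The lowest array was ERT2 replicate 1 for 12 genes and ERT2 replicate 3 for another 12. All 3 CRE-ERT2 arrays exceeded every ERT2 array for each of the 9 genes that rose, which is likely for genes chosen by their difference between these same arrays.

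Other genes of the pathway were read from 3 further lists. Of 18 p53 targets outside the 36, 2 rose and 0 fell, and the median log2 change was 0.04. The calls were 11.1% of the list, where 4.58% of all genes passed in either direction and 2.30% higher. At an unadjusted p under 0.05 there were 4, all higher, where 5.29% of all genes were higher. The groups did not overlap for 5 genes higher and 1 lower, where the shares over all genes were 6.92% and 15.5%. Cd82, a tetraspanin gene known as a metastasis suppressor, read 11.74, 11.64 and 11.48 on the CRE-ERT2 arrays, against 10.71, 10.85 and 10.93 on the ERT2 arrays. It rose 1.73-fold (log2 change 0.79, adjusted p = 0.000142), and passed in all 14 alternatives. Sesn2, a sestrin gene also induced by amino acid shortage, read 10.03, 9.86 and 9.81 on the CRE-ERT2 arrays, against 9.19, 9.48 and 9.26 on the ERT2 arrays. It rose by 0.59 on the log2 scale (adjusted p = 0.00224, or 0.0684 with all probe sets tested). The BH3-only death genes Bbc3 (log2 change 0.26, adjusted p = 0.115) and Pmaip1 (0.04, adjusted p = 0.864), named after their values were seen, did not pass. Gdf15, Fdxr, Bax and Cdkn1a were among those of this list not analysed here.

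Of 23 genes that act upstream of p53 or with it, 0 rose and 1 fell (4.35% of the list, where 4.58% of all genes passed in either direction). At an unadjusted p under 0.05 there were 3, all lower, where 11.1% of all genes were lower. These shares are near those over all genes. Atr, a kinase gene of the replication stress response, was at 10.40, 10.23 and 10.31 on the CRE-ERT2 arrays, against 10.91, 10.62 and 10.59 on the ERT2 arrays (log2 change -0.40, adjusted p = 0.0287). Its call was lost without CRE-ERT2 replicate 1, 2 or 3 (adjusted p = 0.0506, 0.107 and 0.133), without ERT2 replicate 1 (0.0998) and with all probe sets tested (0.203). The median of this list was -0.06, near that of all genes.

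Of 22 mitotic genes that p53 is known to lower indirectly, through the inhibitor p21 and the DREAM repressor complex, 1 passed and it fell. This was 4.55% of the list, where 4.58% of all genes passed in either direction and 2.28% lower. At an unadjusted p under 0.05 there were 8, all lower, where 11.1% of all genes were lower. Mybl2, a cell cycle transcription factor gene, was at 11.17, 11.12 and 11.13 on the CRE-ERT2 arrays, against 11.44, 11.45 and 11.45 on the ERT2 arrays (log2 change -0.30, adjusted p = 0.0235). The log2 change was below 0 for 21 of the 22 genes, where 61.1% of all genes were below 0, and the list median was -0.13. The groups did not overlap for 12 of the 22 genes, all lower on the CRE-ERT2 arrays, where the share over all genes was 15.5%. Mybl2 lost its call with the replicate number as a block (0.0872), with all probe sets tested (0.0913) and when any 1 array was left out (adjusted p = 0.0514 to 0.107).

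**Figure D4:**
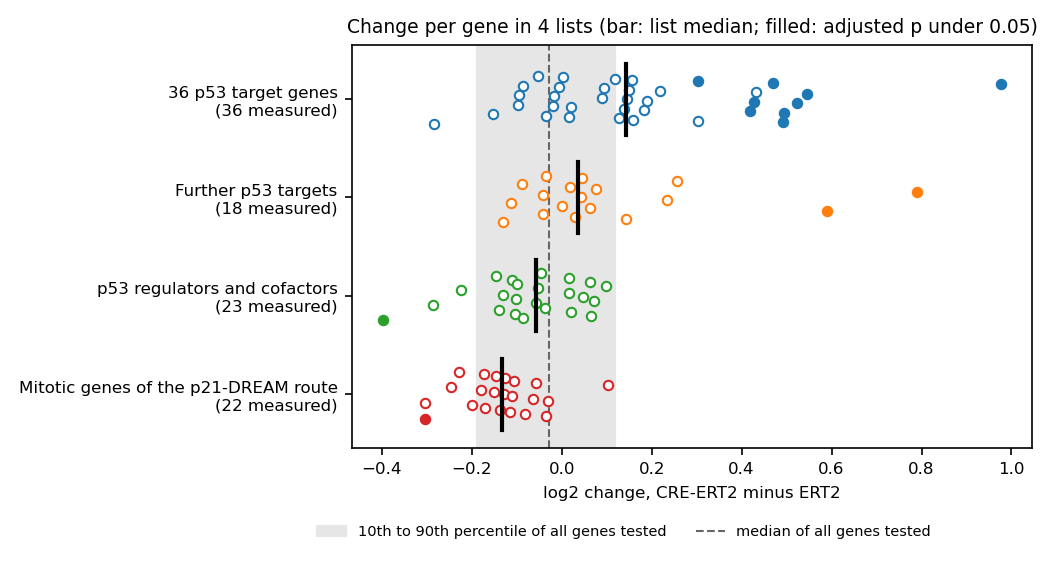
Log2 change (horizontal axis, CRE-ERT2 minus ERT2) of each measured gene of 4 lists, in rows from the 36 p53 target genes to the mitotic genes, with filled points at an adjusted p under 0.05 and a bar at each list median. The medians were 0.14, 0.04, -0.06 and -0.13 from top to bottom, and the dashed line marks that of all genes tested (-0.03).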

How the data were processed

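Biotin-labelled total RNA from 6 samples was hybridised to Affymetrix arrays, per the labels' protocols. The authors deposited 1 log2 value per probe set and array. The submitters' processing notes list RMA and Partek 6.5 and do not say what each was used for. The log2 scale was read from the range of the values. No detection call or scan date entered the work: signal over background is unknown. The number of arrays and the spread of each gene between them limit precision. Of 35556 probe sets, 21789 name exactly 1 gene in the platform annotation, and the brightest of them on average stood for each gene.

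CRE-ERT2 was compared with ERT2 over all 19938 genes in R 4.3.3 with the limma 3.58.1 functions lmFit and eBayes (two-sided, Benjamini-Hochberg adjustment, threshold 0.05, intervals at 95%). Whether the arrays of a group stem from different cultures is not labelled, so a p-value reflects sample-to-sample spread that may be purely technical. The fit was tested on simulated data with normal noise drawn independently for each gene and array. That noise held no variation shared across genes of an array, so the simulation cannot show how calls fare under it. The genes, lists and tests were chosen with earlier results of these data known. The text names all 36 genes and, per further list, up to 4 genes that passed with the largest change. Bbc3 and Pmaip1 were added outside that rule. Promoters are RefSeq sequence on GRCm38.p6.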

Additional observations from a re-analysis of the deposited data

How the results depend on the processing

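Over 14 alternatives, the count of p53 targets higher on the CRE-ERT2 arrays was 8 to 11, except with all probe sets tested, where it was 3, and the list median log2 change was 0.13 to 0.17. Plk2, Eda2r and Trp53inp1 passed in all 14, and Btg2, Gadd45b, Zmat3, Tnfrsf10b and Ephx1 in 13. The count of targets called lower was 1 (Plk3) with the dimmest genes left out, with array weights and without ERT2 replicate 1, and 0 to 1 over the arrays left out. All genes called numbered 914, but 1544 with a trended and robust variance and 1260 with the dimmest genes left out. They numbered 298 with all probe sets tested and 589 with the replicate block. With 1 array left out they numbered 453 to 979. The counts were 453 and 574 on omitting replicates 3 and 2 of CRE-ERT2, and 560 on omitting replicate 1 of ERT2. The share of calls that were higher was 50.2%, but 60.9% after a further quantile normalization, 63.1% with all probe sets tested and 38.0% with a trended and robust variance. The replicate block gave 8 targets higher, losing Dcxr. Deviations of equally numbered arrays correlated at -0.11, -0.37 and -0.07, and those of unequally numbered arrays at -0.32 to 0.45, the highest being CRE-ERT2 1 with ERT2 2 (0.45), CRE-ERT2 2 with ERT2 3 (0.40) and CRE-ERT2 3 with ERT2 1 (0.18). No array correlated best with its own number, so the numbers were not taken to pair the samples. Over all probe sets, ERT2 2 correlated best with CRE-ERT2 1 (0.9951) and ERT2 3 with CRE-ERT2 2 (0.9949). Within their own group they reached at most 0.9943 and 0.9938. The other arrays correlated best within their group. No block other than the replicate number was fitted.

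The upstream list had 1 gene called lower, but 2 with the dimmest genes left out or a trended variance, 0 with all probe sets tested and 0 to 2 with 1 array left out. The mitotic list had 1, but 2 with the dimmest genes left out, 5 with a trended variance, 0 with all probe sets tested, 0 with the block and 0 to 1 with 1 array left out. The further targets had 1 called higher with all probe sets tested. The causes were not tested. Testing all probe sets changed the number of tests and the moderated variance together. Signs near 0 turned: after quantile normalization, centring or array weights Trp73 was at 0.011, 0.013 and 0.00086. Wrap53 was at 0.015 and 0.00073, and Sesn1 at 0.024 and 0.00027, after quantile normalization and centring. With 1 array left out, log2 changes spanned 0 for Mdm4 (-0.067 to 0.073), Trp73 (-0.047 to 0.017), Wrap53 (-0.083 to 0.050), Perp (-0.16 to 0.034), Apaf1 (-0.038 to 0.10), Aen (-0.029 to 0.063), Xpc (-0.11 to 0.053) and Sesn1 (-0.069 to 0.016).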

Other observations

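The log2 changes of 4 pairs of related target genes are set side by side. The pairs were chosen after their values were seen, and each was compared as the log2 difference between both genes on the same array, with a two-sided exact permutation test of 3 arrays against 3, which cannot go below 0.1. The difference of Plk2 minus Plk3 was 0.22, 0.14 and 0.21 on the CRE-ERT2 arrays, against -0.78, -1.09 and -1.34 on the ERT2 arrays. The change of Plk2 thus exceeded that of Plk3 by 1.26. The change of the sestrin gene Sesn2 exceeded that of Sesn1 by 0.61. That of Gadd45b exceeded the change of Gadd45a by 0.30 and of Gadd45g by 0.35. The exact permutation p was 0.1 for each of the 4 pairs, the smallest value possible, and 0.1 after Benjamini-Hochberg adjustment over them. As these tests could not have gone under 0.05 whatever the values, they cannot decide whether related genes differed.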
